A study of Mus musculus with 16 samples.

Results

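S100 proteins and annexins are 2 families of calcium-binding proteins, and 10 of their genes were followed here in splenic CD4+ T cells of mice: S100a4, S100a6, S100a10, S100a11 and S100a13, and Anxa1, Anxa2, Anxa5, Anxa6 and Anxa7. They were found among 47643 genes in each of 2 deposited tables by matching Ensembl identifiers to symbols, and were chosen by their expression in T cells, with no threshold stated. The choice was not complete: Anxa4, which passed the filter on low values in Treg, is not among them, and Anxa1, with 10 and 2 recovered reads in TRaGS and TRaWT Treg, is. Because their level in these libraries, and earlier genotype results of the same data, were known when they were chosen, their levels are a description and the count of changed members is no evidence about the families as such.

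The mutant animals were TRaGS mice, whose thyroid hormone receptor alpha carries a mutation that abolishes its binding to DNA, and the comparison animals were TRaWT mice. The series description calls them littermates, but of the TRaGS animals only replicate 1 has a number within the range of the TRaWT numbers. The number of TRaGS replicate 2 lies above that range and those of replicates 3 and 4 lie farther above. Shared litters were not checked. No age, sex or treatment of the animals is used here. From each of 8 spleens, 4 per genotype, CD25+ CD4+ regulatory T cells (Treg) and CD25- CD4+ T cells (called CD4 below) were sorted, which gave 16 libraries in 4 groups of 4. The labels call the CD25- cells naive, but a gate on CD4 and CD25 alone can also hold memory cells, and a CD25+ gate can hold recently activated conventional cells.

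Values are normalised read counts from libraries that sample the 3′ ends of polyadenylated transcripts, and each subset's table was scaled by itself. Levels of different genes were not set against each other. Whole reads could be recovered from the values, 2912038 to 4154027 per Treg library and 2679119 to 5095278 per CD4 library. The ribosomal RNA-overlapping gene Gm42418 took 20.8% to 33.0% of Treg reads and 21.1% to 41.1% of CD4 reads. The labelled subsets differed in Foxp3, the lineage factor of Treg. In recovered reads per 1000000 outside Gm42418, it averaged 498 ± 89.1 in Treg and 52.7 ± 28.3 in CD4 of TRaGS animals, and 495 ± 38.8 in Treg and 38.3 ± 18.0 in CD4 of TRaWT animals (SD, n = 4 each). On the same scale Il2ra averaged 490 ± 66.5 in Treg and 42.7 ± 18.6 in CD4 of TRaGS animals. In TRaWT animals Il2ra averaged 636 ± 61.9 in Treg and 49.5 ± 12.8 in CD4. In bulk samples such as these, fewer cells of a type and less RNA per cell cannot be told apart.

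S100 proteins are small EF-hand proteins that mostly act as dimers, exposing a surface for target proteins when calcium binds, and several are also released from cells. Annexins bind negatively charged phospholipids in the presence of calcium and so attach to membranes during trafficking, repair and cell death. The families meet directly: S100A10, which is locked in an active state and needs no calcium, forms a complex with annexin A2, and S100A11 binds annexin A1. In T cells, S100a4, S100a6 and S100a10 transcripts are commonly more abundant in antigen-experienced cells than in naive cells.

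The 5 S100 genes lie on mouse chromosome 3 (GRCm38), all on the plus strand. S100a13 (ENSMUSG00000042312) spans 90514435 to 90524581, S100a4 (ENSMUSG00000001020) 90603771 to 90606045 and S100a6 (ENSMUSG00000001025) 90612882 to 90624181. S100a11 (ENSMUSG00000027907) lies farther along, at 93520488 to 93526287, beside S100a10 (ENSMUSG00000041959) at 93555080 to 93564643. The annexin genes are scattered and all but Anxa2 are on the minus strand: Anxa5 (ENSMUSG00000027712) on chromosome 3 at 36448923 to 36475894, and Anxa2 (ENSMUSG00000032231) on chromosome 9 at 69453620 to 69491795. Anxa6 (ENSMUSG00000018340) is on chromosome 11 at 54979108 to 55033445, Anxa7 (ENSMUSG00000021814) on chromosome 14 at 20455260 to 20480133 and Anxa1 (ENSMUSG00000024659) on chromosome 19 at 20373428 to 20390944.

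The start regions of 3 of the S100 genes that were higher in TRaGS Treg, described below, are shown because the mutated receptor normally acts by binding DNA (RefSeq, GRCm38.p6, each 250 bases before to 50 bases after the transcript start, plus strand, 5′ to 3′). Capitals mark AGGTCA or its reverse complement TGACCT, the half-site that thyroid hormone receptors recognise. The windows are chr3:90603520-90603819 for S100a4, chr3:90612644-90612943 for S100a6 and chr3:93520246-93520545 for S100a11. No window was available for S100a10, which was also higher in TRaGS Treg, or for Anxa6.
S100a4: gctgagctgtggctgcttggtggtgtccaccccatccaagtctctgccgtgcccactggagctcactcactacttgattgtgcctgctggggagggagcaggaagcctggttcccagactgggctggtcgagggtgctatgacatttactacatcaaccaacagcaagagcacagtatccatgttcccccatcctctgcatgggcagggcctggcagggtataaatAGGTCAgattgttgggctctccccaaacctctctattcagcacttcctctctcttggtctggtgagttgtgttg
S100a6: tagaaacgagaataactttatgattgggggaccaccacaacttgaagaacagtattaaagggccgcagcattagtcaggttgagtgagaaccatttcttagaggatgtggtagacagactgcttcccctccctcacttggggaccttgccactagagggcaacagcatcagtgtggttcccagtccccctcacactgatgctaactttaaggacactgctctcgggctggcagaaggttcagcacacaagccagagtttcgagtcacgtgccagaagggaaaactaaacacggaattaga
S100a11: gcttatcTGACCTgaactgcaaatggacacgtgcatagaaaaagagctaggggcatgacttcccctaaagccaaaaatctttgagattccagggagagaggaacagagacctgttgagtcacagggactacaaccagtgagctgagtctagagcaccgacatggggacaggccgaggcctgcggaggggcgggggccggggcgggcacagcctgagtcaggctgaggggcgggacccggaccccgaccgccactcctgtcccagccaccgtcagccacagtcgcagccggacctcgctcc
In S100a4 the half-site begins 24 bases before the transcript start, and in S100a11 it begins 243 bases before the start. Of 9 windows available for 8 of the 10 genes, these 2 held the half-site on either strand, while 16.3% of all 32851 promoter windows of that length did. A match of 6 letters is a description of the sequence and shows no binding, and its absence from the S100a6 window concerns these 300 bases only.

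The comparison of genotypes asks what loss of DNA binding by the receptor does to gene expression in each subset. S100a4, S100a6, S100a10 and S100a11 were higher in TRaGS Treg, with mean ratios from 1.59 to 3.33. S100a13, Anxa2, Anxa5, Anxa6 and Anxa7 did not pass the test, and Anxa1 was not tested. Of the 9 members tested in Treg these 4 were called, all higher, where 0.959% of all 11051 genes tested were called in either direction and 0.733% were called higher. For the same 4 every TRaGS library lay above every TRaWT library, where 2.84% of all genes tested were separated in that way, 2.23% in the opposite way and 5.07% in either. Because the members were chosen with such results known, nothing is read from these counts. A gene was called when its adjusted p was under 0.05 in limma, a linear model fitted to log2(normalised count + 1) of all genes with a mean of at least 5, with Benjamini-Hochberg adjustment.

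**Figure D1:**
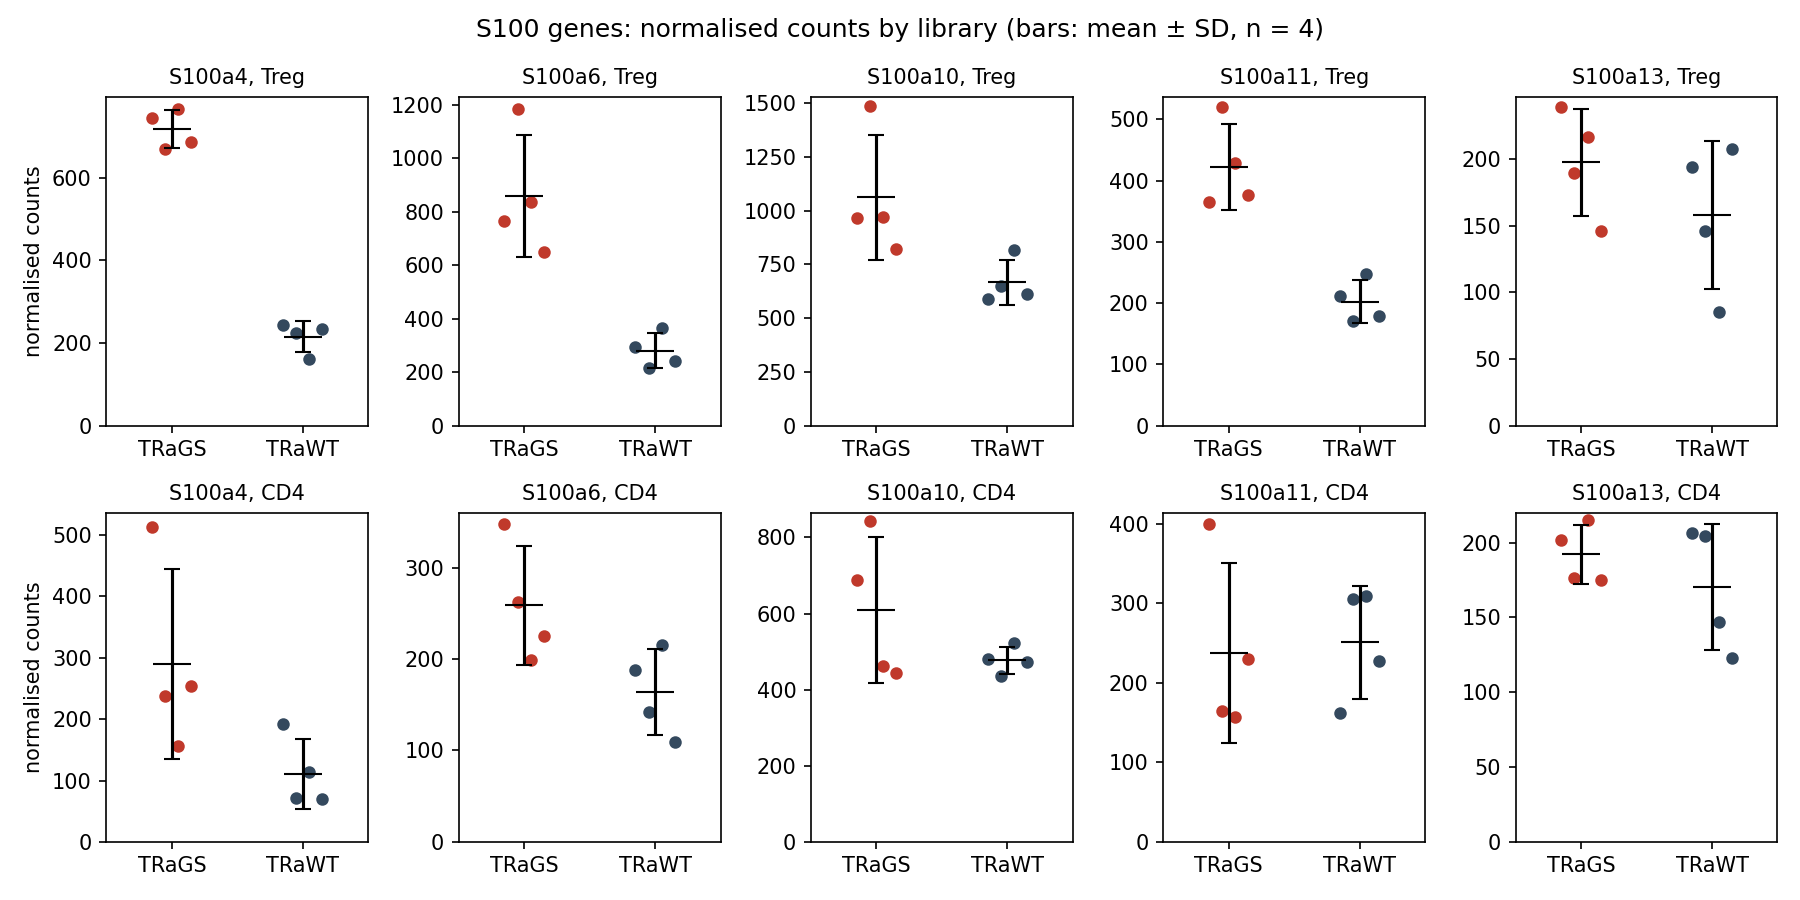
Normalised counts of the 5 S100 genes in every library, Treg in the upper row and CD4 in the lower row, TRaGS left and TRaWT right; points are libraries and bars the mean ± SD (n = 4). In Treg the genotypes are separate for S100a4, S100a6, S100a10 and S100a11, and in CD4 they overlap for all 5 genes.

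S100a4 encodes a protein that binds non-muscle myosin and is linked to cell motility. It had 745, 670, 766 and 687 normalised counts in TRaGS Treg replicates 1 to 4, against 243, 224, 161 and 234 in TRaWT Treg. The 4 TRaGS libraries lay close together, and the lowest of them was well above the highest TRaWT library. The means were 717 ± 45.8 in TRaGS and 216 ± 37.2 in TRaWT (SD, n = 4 each), a log2 fold change of 1.75 ± 0.18 (SE, limma adjusted p = 4.83e-08), on 3143 recovered reads in TRaGS and 856 in TRaWT.

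S100a6, or calcyclin, binds the ubiquitin ligase component encoded by Cacybp, among other partners. It had 766, 1182, 837 and 648 normalised counts in TRaGS Treg, against 295, 217, 366 and 242 in TRaWT Treg. TRaGS replicate 2 stood highest, and the groups did not overlap. The means were 858 ± 229 in TRaGS and 280 ± 66.0 in TRaWT, a log2 fold change of 1.60 ± 0.19 (limma adjusted p = 4.08e-07).

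S100a11, whose protein binds annexin A1 and takes part in membrane repair, had 365, 520, 428 and 376 normalised counts in TRaGS Treg, against 211, 171, 248 and 178 in TRaWT Treg. The groups did not overlap, and, as for S100a6, TRaGS replicate 2 and TRaWT replicate 3 were the highest of their groups. The log2 fold change was 1.06 ± 0.20 (limma adjusted p = 0.00254), from means of 422 ± 70.5 in TRaGS and 202 ± 35.4 in TRaWT.

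S100a10, the partner of annexin A2, had 967, 1485, 973 and 822 normalised counts in TRaGS Treg, against 588, 651, 818 and 610 in TRaWT Treg. TRaGS replicate 4 was barely above TRaWT replicate 3, so the separation was narrow, and again TRaGS replicate 2 and TRaWT replicate 3 were the highest. The log2 fold change of 0.65 ± 0.16 passed the test (limma adjusted p = 0.0374), from means of 1062 ± 291 in TRaGS and 667 ± 104 in TRaWT. This call was lost in 9 of 18 alternatives, 6 of which left out 1 library, and without TRaGS replicate 2 the change was 0.47 (limma adjusted p = 0.220). Among these 9 was edgeR on recovered reads (adjusted p = 0.0525). S100a4, S100a6 and S100a11 kept their calls in 18 of 18.

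S100a13, which takes part in the release of signal-peptide-less proteins, had 239, 189, 216 and 146 normalised counts in TRaGS Treg, against 194, 146, 85.1 and 208 in TRaWT Treg. The groups overlapped, and the log2 fold change of 0.38 ± 0.27 did not pass (limma adjusted p = 0.743). It lies in the same stretch of chromosome 3 as S100a4 and S100a6, upstream of both. An exact permutation test on each gene alone gave two-sided, unadjusted p = 0.0286 for S100a4, S100a6, S100a10 and S100a11, the smallest that 4 against 4 allows. Any gene whose genotypes do not overlap gives this p, so it adds nothing to the separation described above. For S100a13 the exact permutation p was 0.314.

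Among the annexins of Treg, Anxa6, which encodes a long annexin that links membranes to actin, came nearest to a call. It had 1912, 1810, 1610 and 1186 normalised counts in TRaGS Treg, against 1180, 1318, 1162 and 1385 in TRaWT Treg. TRaGS replicate 4 lay within the TRaWT range while the other 3 TRaGS libraries lay above it, and the log2 fold change of 0.35 ± 0.14 did not pass (limma adjusted p = 0.411).

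Anxa2, the membrane-binding partner of S100A10, varied widely: 121, 67.2, 152 and 50.02 normalised counts in TRaGS Treg, against 104, 14.1, 85.1 and 54.0 in TRaWT Treg. The groups overlapped, and the log2 fold change of 0.78 ± 0.45 did not pass (limma adjusted p = 0.642).

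Anxa5, whose protein binds phosphatidylserine on dying cells, had 89.7, 99.8, 127 and 145 normalised counts in TRaGS Treg, against 74.8, 88.5, 177 and 92.7 in TRaWT Treg. TRaWT replicate 3 was the highest of all 8, the groups overlapped, and the change of 0.15 ± 0.31 did not pass (limma adjusted p = 0.944). Anxa7, encoding an annexin of secretory vesicles, had 47.3, 29.6, 29.0 and 35.9 in TRaGS Treg, against 35.3, 41.2, 54.8 and 31.7 in TRaWT Treg. These groups overlapped too, and the change was -0.19 ± 0.50 (limma adjusted p = 0.956).

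Anxa1, whose protein is a ligand of formyl peptide receptors and is linked to glucocorticoid action, had few reads in Treg. It stood at 1.66, 5.78, 0 and 0 normalised counts in TRaGS and 0.822, 0, 0 and 1.17 in TRaWT, 10 and 2 recovered reads in all. It was the 1 member that did not pass the filter on low values in Treg, and it was not tested there. A library with 0 reads still allows up to 3, which is 2.17 to 3.52 normalised counts in Treg and 2.12 to 3.66 in CD4, for counting error only.

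**Figure D2:**
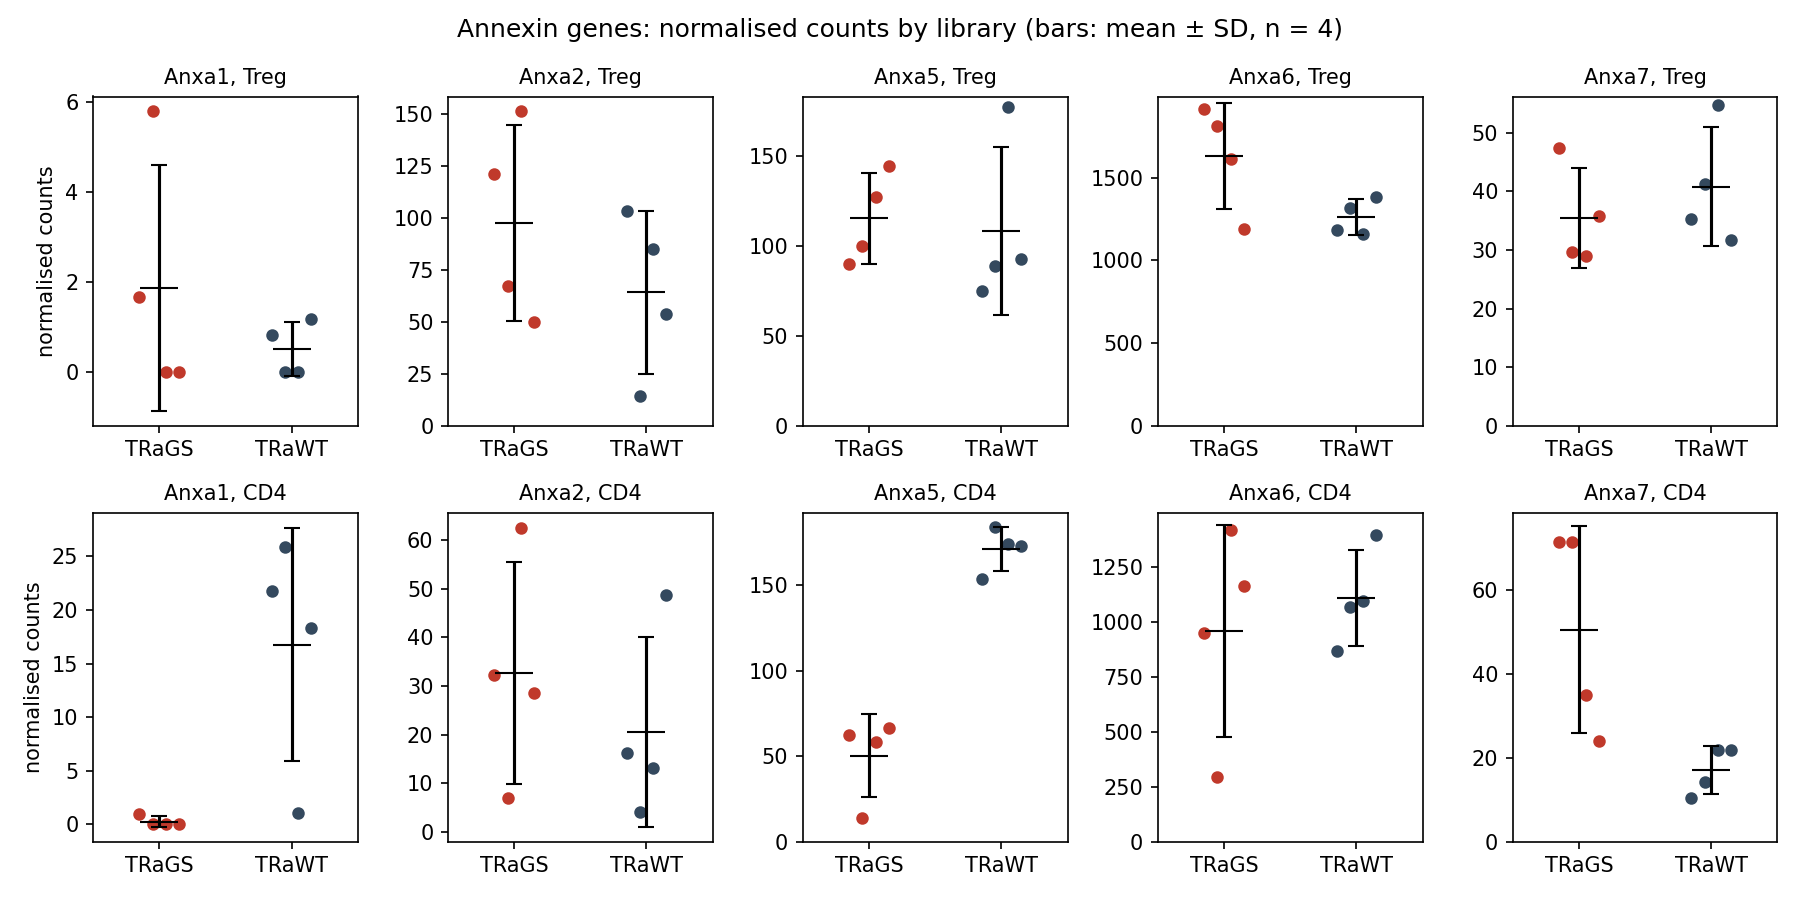
Normalised counts of the 5 annexin genes in every library, Treg in the upper row and CD4 in the lower row, TRaGS left and TRaWT right; points are libraries and bars the mean ± SD (n = 4). Anxa5 is lower and Anxa7 higher in every TRaGS CD4 library than in any TRaWT one, with no call in the test, Anxa1 in CD4 is at 1 read each in TRaGS replicate 1 and TRaWT replicate 3, and in Treg the genotypes overlap for all 5.

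The median log2 fold change of the 9 tested members in Treg was 0.65, beside 0.01 for all genes tested. Of these members 8 of 9 were positive, Anxa5 at 0.15 ± 0.31 included, beside 50.5% of all genes. Both values are a description, since the members were chosen with earlier results of these data known. The place of the members among all genes is shown in the plot of fold change against level. The members spread from S100a4 at 1.75 to Anxa7 at -0.19.

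**Figure D3:**
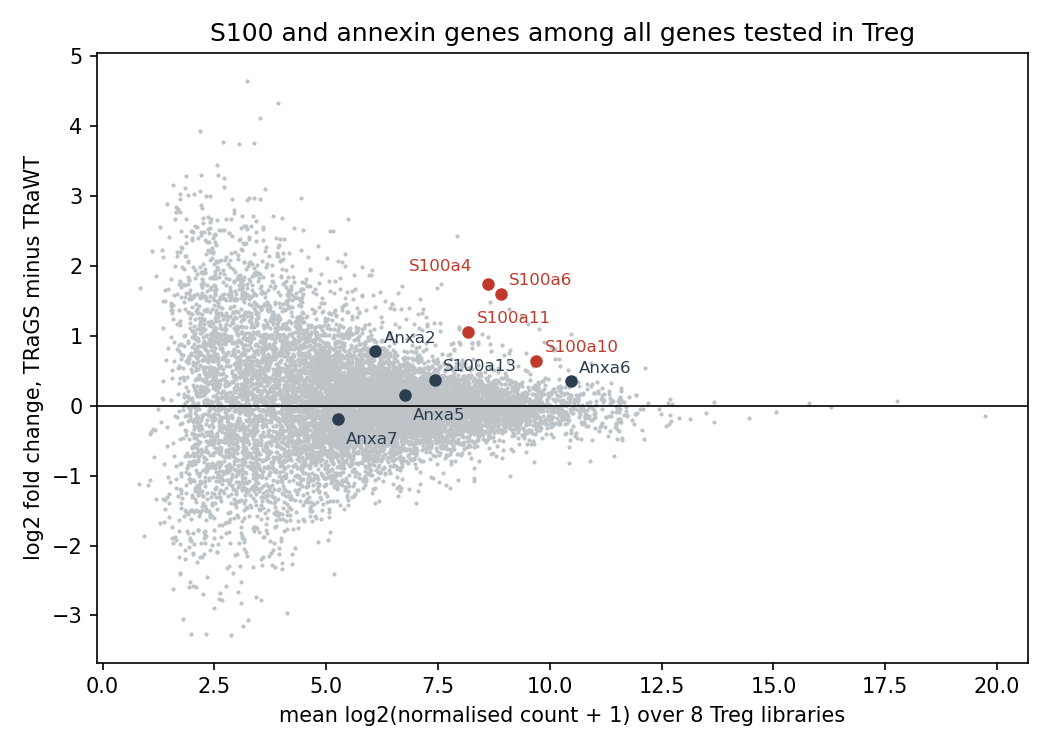
Log2 fold change (TRaGS minus TRaWT) against the mean log2(normalised count + 1) over the 8 Treg libraries for all 11051 genes tested (grey) with the 9 tested family members on top (red: adjusted p under 0.05). The 4 called members lie between S100a10 at 0.65 and S100a4 at 1.75, and Anxa7 at -0.19 is the 1 member below 0.

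Most of the remaining family genes had few reads or none. Of 20 further S100 and annexin genes and relatives with a row in the tables, 10 had no read in any Treg library and 12 none in any CD4 library, among them S100a5, which lies between S100a4 and S100a6. S100pbp, which encodes a binding partner of an S100 protein rather than a family member, had a log2 fold change of -0.20 ± 0.23 in Treg and 0.72 ± 0.41 in CD4, and Anxa4 had -0.47 ± 1.14 in Treg (limma adjusted p = 0.881, 0.947 and 0.953). Anxa4 had 4.15, 0, 23.4 and 3.26 normalised counts in TRaGS Treg and 13.2, 18.1, 1.17 and 2.35 in TRaWT Treg. S100a8 and S100a9, the calgranulins of neutrophils, had 10.8 and 26.6 normalised counts in TRaGS Treg replicate 1, and at most 1.12 in any other Treg library.

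Genes of known S100 and annexin partners were also looked at. Of 21 partner genes 10 were tested in each subset, with 5 positive and 5 negative values in each and 0 called by limma. The share of all genes called was 0.959% in Treg and 0.0575% in CD4, so nothing is read from that count. Their median was -0.02 in Treg and 0.01 in CD4. Ahnak, encoding a giant scaffold that the S100A10 and annexin A2 complex binds at the membrane, had 1824, 1164, 1918 and 1641 normalised counts in TRaGS Treg, against 1410, 1039, 1074 and 1042 in TRaWT Treg. TRaGS replicate 2 lay below TRaWT replicate 1, and the log2 fold change of 0.51 ± 0.15 did not pass (limma adjusted p = 0.117). The formyl peptide receptor genes Fpr1, Fpr2 and Fpr3 had no reads in either subset.

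Of 20 markers of memory and effector T cells, 13 were called higher in TRaGS Treg and 0 lower, where 0.733% of all genes tested were called higher. Of the 20, 18 had positive and 2 negative values, with a median log2 fold change of 1.03, beside 0.01 for all genes, and their summed level was 11937 to 13655 normalised counts in TRaGS and 6242 to 7997 in TRaWT. The 3 with the smallest p were Klrg1, an inhibitory receptor of effector cells (1.49 ± 0.20), Rora, a transcription factor (1.28 ± 0.17), and Ccr2, a chemokine receptor (1.75 ± 0.25), with limma adjusted p from 4.17e-06 to 1.30e-05. Of 10 naive genes 3 were called lower, Foxp1, Igfbp4 and Satb1, where 0.226% of all genes tested were called lower, and the summed level of the 10 was 7888 to 9541 in TRaGS and 10653 to 11498 in TRaWT. Because both lists were chosen with earlier results of these data known, nothing is read from these counts. Neither list's sums overlapped between the genotypes, and the part of memory and naive cells in the S100 result was not tested.

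Other cells of the spleen that hold much S100 and annexin mRNA were also looked at. The 11 monocyte, macrophage and dendritic cell markers summed to 58.7 to 78.1 normalised counts in TRaGS Treg and 69.98 to 123 in TRaWT Treg, and Adgre1 had no read. Of the 6 neutrophil markers, which include S100a8 and S100a9, the sum was 0.723 to 39.9 in TRaGS and 0.822 to 17.6 in TRaWT, and Ly6g, Csf3r and Retnlg had no read. Of 6 B cell markers 5 were tested, all 5 with positive values and a median log2 fold change of 0.67, and 1 was called (Ighm), where 0.733% of all genes were called higher. They summed to 1633 to 1958 in TRaGS Treg and 870 to 1218 in TRaWT Treg without overlap, while Cd79a was at most 1.17. Of 4 plasma cell markers 3 were tested, all 3 with positive values and a median of 1.54 and 0 called by limma, and they summed to 54.4 to 134 in TRaGS Treg and 36.2 to 105 in TRaWT Treg. The part of B cell and plasma cell RNA in the S100 result was not tested.

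By likeness over the 8 Treg libraries of both genotypes, measured as the root mean square difference of centred log2 values among 6040 genes with a mean of at least 50, S100a10 was nearest to Vim (0.103), Tnfrsf9 (0.131) and Ranbp9 (0.135). Vim encodes the intermediate filament vimentin. Because both genotypes enter this measure, genes near a called member share its genotype difference by construction. S100a11 was nearest to Maf (0.138), Atp2b4 (0.168) and Tmem33 (0.181), and S100a6 to Chst2 (0.183), Atp2b4 (0.264) and Klrg1 (0.269). The nearest to S100a4 were Cep290 (0.289), Abcb1a (0.298) and Nrn1 (0.307). Atp2b4, which encodes a calcium pump of the plasma membrane, was near both S100a6 and S100a11. Among pairs of called members, S100a10 and S100a11 differed least, by 0.262, and S100a4 and S100a10 most, by 0.674. S100a6 and S100a11 differed by 0.296, and S100a4 and S100a6 by 0.429.

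In CD4 cells no member was called, at 0 of 10 tested, where 0.0575% of all 10426 genes were called by limma and 539 had an unadjusted p under 0.05. edgeR and DESeq2 also called 0 members. The genotypes were apart for Anxa5 and Anxa7, where 3.16% of all genes tested did not overlap, 1.43% with TRaGS higher and 1.73% with TRaGS lower. In this subset limma set each gene's variance to the trend at its level, so a CD4 standard error does not measure that gene's own spread between animals.

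Anxa5 was lower in every TRaGS CD4 library, at 62.6, 14.1, 58.4 and 66.5 normalised counts, against 153, 184, 174 and 173 in TRaWT CD4. The TRaWT libraries were tightly grouped, and TRaGS replicate 2 was far below the other TRaGS libraries. The log2 fold change was -1.95 ± 0.61, with a limma adjusted p = 0.611 and an unadjusted p = 0.00137, on 199 reads in TRaGS and 712 in TRaWT. Without TRaGS replicate 2 it was -1.44. The exact permutation test on this gene alone gave p = 0.0286, unadjusted and the smallest possible, which any gene with separate genotypes gives.

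Anxa1 had 0.978, 0, 0 and 0 normalised counts in TRaGS CD4, against 21.8, 25.9, 1.09 and 18.3 in TRaWT CD4. In all, 1 read fell in TRaGS and 74 in TRaWT, a ratio of 0.0132 with an exact 95% counting interval from 0.000329 to 0.0756 that ignores the spread between animals. TRaGS replicate 1 and TRaWT replicate 3 had 1 read each and differed by their scaling factors alone, so the genotypes overlapped in reads. Anxa1 passed the filter on low values through the TRaWT libraries, and its limma adjusted p of 0.942 is given for completeness. Anxa7 had 71.4, 71.4, 34.9 and 24.1 normalised counts in TRaGS CD4, against 10.5, 14.2, 21.8 and 22.0 in TRaWT CD4, with the lowest TRaGS library just above the highest TRaWT one. Its log2 fold change was 1.42 ± 1.03 (limma adjusted p = 0.947).

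Beside these annexin values, the 11 monocyte, macrophage and dendritic cell markers summed to 48.9 to 113 normalised counts in TRaGS CD4 and to 118 to 249 in TRaWT CD4, without overlap. Of these 8 were tested, 3 with positive and 5 with negative values and 0 called by limma. Among them Lyz2, a lysozyme of myeloid cells, reached 76.4 in TRaGS and 5.44 in TRaWT. Ly6c2, which T cells also express, had 27.5 to 36.2 in TRaGS and 57.7 to 105 in TRaWT, and Itgam, an integrin of myeloid cells, reached 3.54 in TRaGS and 61.8 in TRaWT. Csf1r was at most 4.88 and Adgre1 at most 0.835 in any CD4 library. The part of such cells in the annexin values was not tested.

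Anxa6 in CD4 showed how much 1 library could move a value, with 952, 294, 1421 and 1165 normalised counts in TRaGS and 867, 1071, 1097 and 1398 in TRaWT. TRaGS replicate 2 was the lowest of all 8 libraries by a wide margin. The log2 fold change was -0.40 ± 0.24 (limma adjusted p = 0.947) with that library and 0.09 without it.

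The S100 genes overlapped between the genotypes in CD4. S100a4 had 513, 238, 157 and 253 normalised counts in TRaGS CD4, against 191, 71.0, 113 and 69.5 in TRaWT CD4. TRaGS replicate 3 lay below TRaWT replicate 1, so the groups overlapped, and the log2 fold change of 1.37 ± 0.46 did not pass (limma adjusted p = 0.771, exact permutation p = 0.0571). S100a6 had 348, 262, 199 and 226 in TRaGS CD4, against 188, 142, 216 and 110 in TRaWT CD4, a log2 fold change of 0.67 ± 0.42 (limma adjusted p = 0.947). In CD4 the 4 Treg markers Foxp3, Il2ra, Ikzf2 and Ctla4 summed to 718 to 1029 in TRaGS and 579 to 691 in TRaWT. These sums did not overlap, with 3 positive values and 1 negative and 0 called by limma (0.0575% of all genes). In Treg they summed to 7030 to 8686 in TRaGS and 6247 to 7248 in TRaWT, overlapping. There 2 had positive and 2 negative values, with 1 called higher (0.733% of all genes). The part of Treg in the CD4 values was not tested.

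S100a10 had 689, 843, 461 and 445 normalised counts in TRaGS CD4, against 481, 435, 522 and 473 in TRaWT CD4, so replicates 1 and 2 of TRaGS were high and the other TRaGS libraries lay within the TRaWT range. S100a11 had 400, 164, 157 and 230 in TRaGS CD4, against 161, 306, 309 and 227 in TRaWT CD4, and the groups overlapped, with TRaGS replicate 1 above every TRaWT library. The log2 fold changes were 0.30 ± 0.29 and -0.14 ± 0.40, with limma adjusted p = 0.947 and 0.986.

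The other members tested in CD4 did not pass either. S100a13 had 201.4, 176, 215 and 175 normalised counts in TRaGS CD4, against 207, 205, 147 and 123 in TRaWT CD4, with a log2 fold change of 0.20 ± 0.44. Anxa2 had 32.3, 7.07, 62.5 and 28.6 in TRaGS CD4, against 16.1, 4.18, 13.1 and 48.8 in TRaWT CD4, with a log2 fold change of 0.76 ± 1.15. Both pairs of groups overlapped (limma adjusted p = 0.978 and 0.959). Ahnak, the scaffold described above, had 289, 167, 388 and 314 in TRaGS CD4 and 431, 470, 323 and 346 in TRaWT CD4, a log2 fold change of -0.49 ± 0.35 (limma adjusted p = 0.947). Over the 10 members, Anxa1 included, the median was 0.25, beside -0.01 for all genes tested, and 6 were positive, beside 49.3% of all genes. As in Treg, nothing is read from these values, because the members were chosen with earlier results known. The memory and effector list had a median of -0.05 in CD4, and its 0 of 20 called by limma stands beside the 0.0575% called among all genes.

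To ask whether genotype acted unequally in the subsets, each animal's Treg minus CD4 log2 value was compared between genotypes, for the 9 members that passed the filter in both. None of the 9 was called by limma, where 0.171% of 9914 genes were called (0.0303% positive and 0.141% negative), and 656 genes had an unadjusted p under 0.05. S100a11 had an effect of 1.06 in Treg and -0.14 in CD4, a difference of 1.20 ± 0.42 (SE, limma adjusted p = 0.462). S100a6 had a difference of 0.93 ± 0.38 (limma adjusted p = 0.604). For S100a4 the effects of 1.75 and 1.37 were alike in sign, with a difference of 0.38 ± 0.43 (limma adjusted p = 0.910). The exact permutation p, unadjusted over the 9 members, was 0.0571 for S100a11, 0.0286 for S100a6 and 0.571 for S100a4. The differences were positive for 8 of 9 members, beside 50.6% of all genes. Of these, Anxa2 at 0.02 ± 1.07 turned negative in 5 of 17 alternatives and S100a13 at 0.18 ± 0.50 in 1. Nothing is read from the count of signs, because the members were chosen with earlier results of these data known. Of the memory and effector list, only Vim, Rora and Ccr2 were called in this difference (limma adjusted p = 0.00104, 0.0345 and 0.00791), all positive. Klrg1, Maf and Cd44 were among those not called (limma adjusted p = 0.873, 0.743 and 0.820). Of the naive list only Foxp1 was called, with a negative value (limma adjusted p = 0.0181). Both lists were chosen with earlier results of these data known, so nothing is read from these calls.

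Of the annexins, Anxa5 had the largest positive difference among the members, 2.10 ± 0.67 (limma adjusted p = 0.292), from 0.15 in Treg and -1.95 in CD4. Anxa6 had 0.75 ± 0.27 (limma adjusted p = 0.489). It was called without TRaGS replicate 4 (1.06, adjusted p = 0.0321) and with TRaGS replicates 1 and 2 alone (1.61, adjusted p = 0.000723), and it was 0.20 without TRaGS replicate 2. Anxa7 had -1.62 ± 1.12 and Anxa2 0.02 ± 1.07, which was -0.34 with quantile normalisation.

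**Figure D4:**
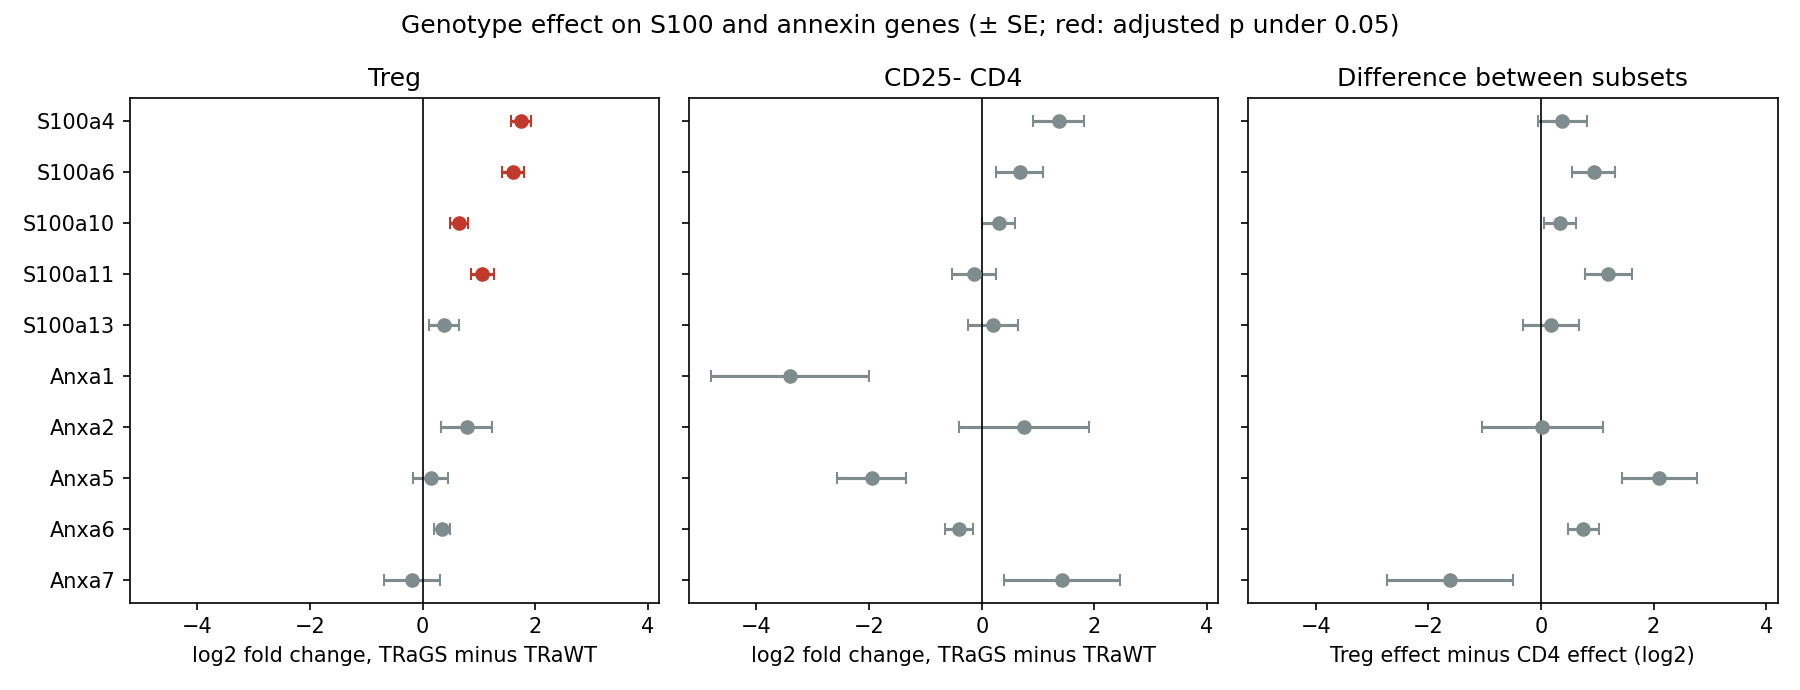
Log2 fold change (TRaGS minus TRaWT, ± SE) of each member in Treg (left) and CD4 (middle), and the difference between these effects (right); red marks an adjusted p under 0.05. The 4 red points are S100a4, S100a6, S100a10 and S100a11 in Treg, and no member is red in CD4 or in the difference.

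Levels in the subsets were set side by side as recovered reads per 1000000 outside Gm42418, with no test, because the tables were scaled separately and the level was part of how the genes were chosen. S100a4 averaged 309 ± 28.2 in Treg and 127 ± 69.4 in CD4 of TRaGS animals, and 91.4 ± 15.6 in Treg and 52.5 ± 25.9 in CD4 of TRaWT animals, and it was higher in Treg in 4 of 4 animals of each genotype. S100a6 averaged 368 ± 95.1 in Treg and 112 ± 28.3 in CD4 of TRaGS animals, and 119 ± 26.7 and 77.6 ± 22.7 in Treg and CD4 of TRaWT animals, with the same direction in all 8. S100a10 was likewise higher in Treg in 8 of 8 animals, with a Treg to CD4 ratio of 1.76 in TRaGS and 1.25 in TRaWT.

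The other members did not all share this order. S100a11 was higher in Treg than in CD4 in 3 of 4 TRaGS animals and in 1 of 4 TRaWT animals. Anxa5 was higher in Treg in 4 of 4 TRaGS animals, at 49.5 ± 10.5 in Treg and 23.1 ± 12.3 in CD4, and in 0 of 4 TRaWT animals, at 46.0 ± 19.7 in Treg and 81.1 ± 6.96 in CD4. Anxa2 was higher in Treg in 4 of 4 TRaGS and 3 of 4 TRaWT animals. Anxa7 was higher in Treg in 1 of 4 TRaGS animals, at 15.3 ± 3.81 in Treg and 21.2 ± 8.79 in CD4, and in 4 of 4 TRaWT animals, at 17.3 ± 4.41 in Treg and 8.16 ± 2.92 in CD4. Anxa6 was higher in Treg in 3 of 4 TRaGS and 2 of 4 TRaWT animals, S100a13 in 2 of 4 and 1 of 4, and Anxa1, with few reads, in 2 of 4 and 0 of 4.

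**Figure D5:**
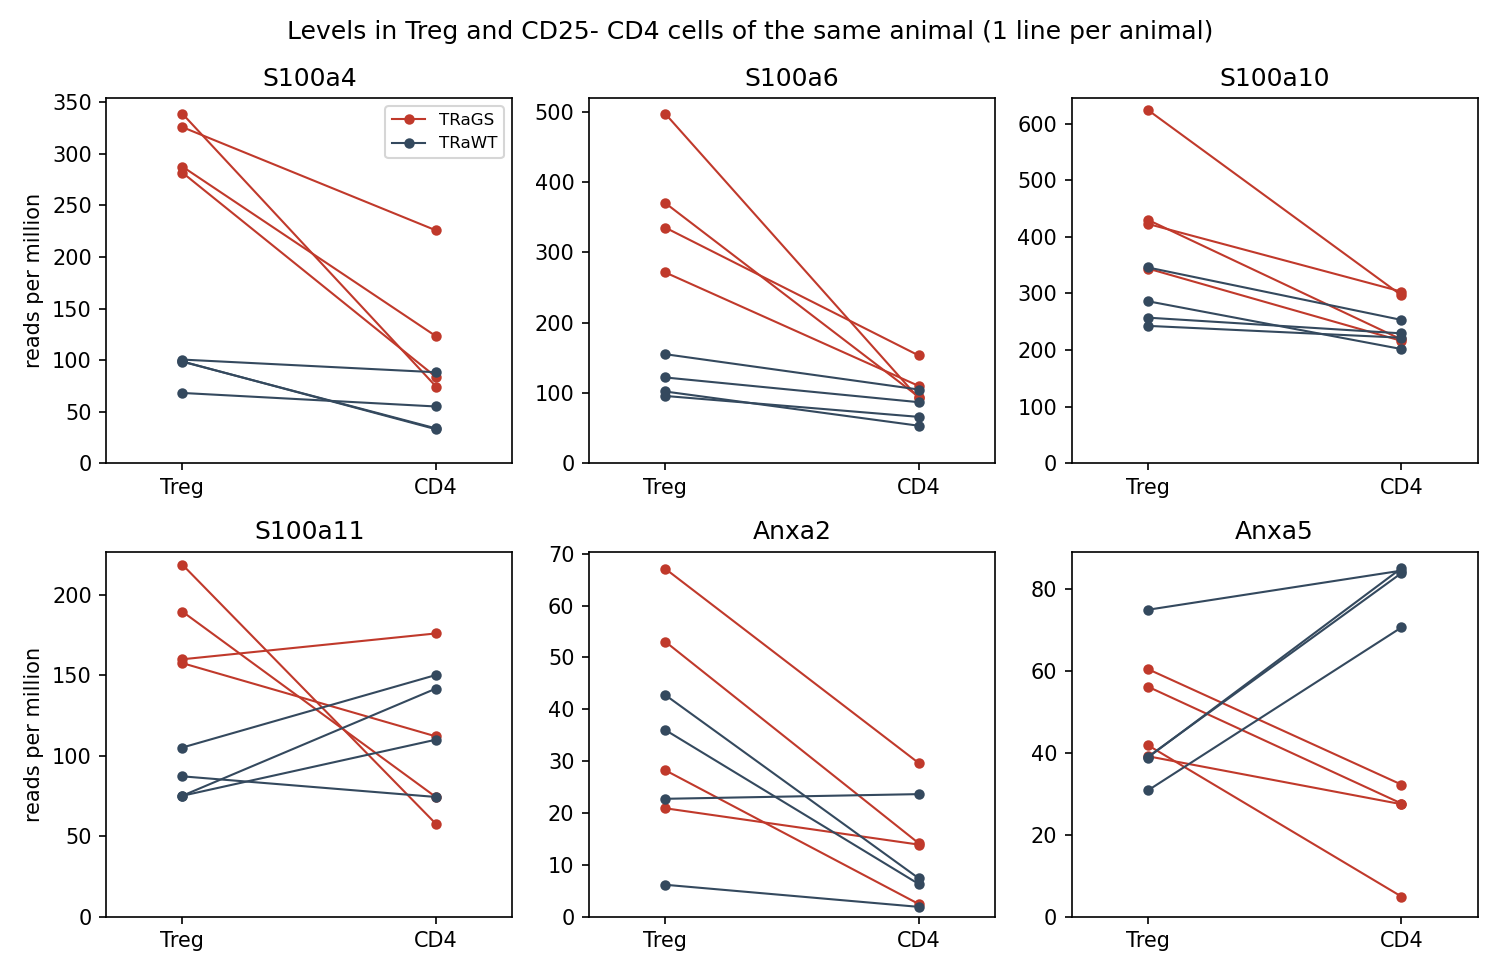
Recovered reads per 1000000 (outside Gm42418) in Treg and CD4 libraries of the same animal, 1 line per animal, TRaGS red and TRaWT dark blue, for 6 members. S100a4, S100a6 and S100a10 slope down from Treg to CD4 in all 8 animals, and Anxa5 slopes down in the 4 TRaGS animals and up in the 4 TRaWT animals.

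Limits of the counting concern 2 of the called genes. S100a4 overlaps Gm42674 (90601904 to 90605885, same strand), to which 0 reads were assigned in either subset, and the handling of reads that match both is not known here. The last 300 bases of S100a11 match the annotated copies Gm12854 and Gm7665 at 98.1% and 97.5% over 160 bases, and both copies are also listed at 0. For the other members no other transcript matched the 3′ end at 95% identity over at least 100 bases.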

How the data were processed

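RNA of sorted Treg and CD25- CD4 cells was made into 3′ mRNA libraries, per the labels' protocols. The submitters' processing notes name the build GRCm38; the aligner and the program that counted reads were not given in the sources used here. Per the deposited tables, the authors divided each library's read counts by 1 factor, each table apart (unit: signal). In every library 100% of nonzero values were whole multiples of a step (tolerance 0.001), which gave the reads back.

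Symbols and coordinates came from GENCODE M21 and promoters from RefSeq (GRCm38.p6). Genes with a mean of at least 5 were fitted as log2(value + 1) in limma 3.58.1 under R 4.3.3, letting variance depend on level. Fold changes are TRaGS minus TRaWT and understate changes of low genes. The difference between subsets was fitted per animal. Other settings tried were pseudocounts (0.5, 5), filters (none, mean of 20) and scalings (upper-quartile, quantile). Count tests on recovered reads used edgeR 4.0.16 and DESeq2 1.42.0 (edgeR called 90 genes in Treg and 3 in CD4). A replicate block, no variance trend, each library or animal left out, and TRaGS replicates 1 and 2 alone were also tried. Of these 2, only replicate 1 has an animal number within the TRaWT range, so this subset is not matched by number.

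Members, lists and tests were chosen with earlier results of these data known. The text names all members, other family genes that passed the filter, called partners and Ahnak, and up to 3 genes of the memory and naive lists by p. It also names genes of these lists called in the difference, with some that were not, the Treg markers, and the 3 genes most like each called member. S100a5, S100a8, S100a9, the Fpr genes, Ighm and single markers were added after their values were seen. The fits were also run on simulated counts, and the outcome is not given here. Treg and CD4 counts were drawn independently there, so pairing by animal was not simulated. The sources used here name no molecular identifiers, so intervals and floors cover counting error only.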

Additional observations from a re-analysis of the deposited data

Results flagged for a closer look

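Among 40 sets of 4 libraries (10 members in 4 groups), 2 held a library set apart by a gap above Dixon's 95% critical value for 4 samples, and chance flags about 1 in 20 sets. Anxa5 in CD4 of TRaGS replicate 2 had 14.1 normalised counts, against 58.4 to 66.5 in the other TRaGS CD4 libraries. Anxa1 in CD4 of TRaGS replicate 1 had 0.978 normalised counts, which is 1 read, against 0 in the other 3.

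Anxa5 was higher in Treg than in CD4 in each of the 4 TRaGS animals and lower in each of the 4 TRaWT animals, a difference between genotypes of 2.10 ± 0.67 on the log2 scale (SE, limma adjusted p = 0.292). The exact permutation test of this gene alone gave p = 0.0286, unadjusted over the 9 members compared and the smallest that 4 against 4 allows. The gene was flagged because the genotypes were separate in this way, so that p adds no support.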

How the results depend on the processing

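S100a4, S100a6 and S100a11 stayed called in Treg under all 18 alternatives, with log2 fold changes of 1.61 to 1.81, 1.44 to 1.79 and 0.96 to 1.16, and S100a10 kept its direction (0.47 to 0.86) but lost its call in 9. The number of members called in Treg was 3 or 4 throughout, in CD4 it was 0 throughout, and for the difference between subsets it was 0 except for 1, Anxa6, without TRaGS replicate 4 and with TRaGS replicates 1 and 2 alone. The median over members in Treg, 0.65, was 0.47 without TRaGS replicate 2 and 0.37 without TRaWT replicate 2.

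Counts over all genes were less stable. In Treg 106 genes were called, 62 with no filter, 34 with TRaGS replicates 1 and 2 alone, and 54 to 108 when 1 library was left out, with 54 and 56 without TRaGS replicates 3 and 4. In CD4 6 were called, 1 with no filter, 2 with upper-quartile scaling, 3 with edgeR, 10 with DESeq2 and 1 to 7 without 1 library, with 1 without TRaGS replicate 1 or TRaWT replicate 3 and 3 without TRaWT replicate 1, 2 or 4. For the difference 17 were called, 1 with no filter, 11 with upper-quartile scaling, 0 with no variance trend (571 at an unadjusted p under 0.05), 30 with TRaGS replicates 1 and 2 alone, and 11 to 30 without 1 animal, with 30 without TRaGS replicate 4 and 11 without TRaWT replicate 1 or 2. The cause was not tested.

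Directions that turned were all of uncalled values. With TRaGS replicates 1 and 2 alone, Anxa5 in Treg was -0.11, S100a11 in CD4 0.0782 and the S100a4 difference -0.0426, and with quantile normalisation the Anxa2 difference was -0.34. Leaving out 1 library gave -0.00113 to 0.41 for Anxa5 in Treg, -0.42 to 0.0272 for S100a11 in CD4 and -0.66 to 0.0916 for Anxa6 in CD4. Leaving out 1 animal gave -0.0339 to 0.48 for the S100a13 difference and -0.50 to 0.35 for that of Anxa2. Upper-quartile scaling moved the median of all genes to -0.13 in CD4 and 0.17 in the difference.

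The correlation of deviations between same-numbered TRaGS and TRaWT libraries was 2.14e-05 to 0.0165 in Treg and 0.0151 to 0.0711 in CD4. Differently numbered libraries were not compared, so these values do not settle whether replicate numbers pair animals of different genotypes. With the replicate block 112 genes were called in Treg, 4 in CD4 and 18 for the difference, and the same number of members (4, 0 and 0). Depth limits Anxa1, Anxa2 and Anxa7 most, which had 0 to 146 reads per library.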
